A study of Mus musculus with 8 samples.

Results

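Blood progenitors grown with doxycycline and labelled iHoxB4 were compared with progenitors that carried the control retrovirus MigR1. The comparison used 4 of the 8 samples of the series, 2 expression arrays for each group, chosen by their titles. The arrays held 35557 probe sets, all of which the comparison covered, and 27329 of them passed a filter on low values and were tested. The values are deposited scores with no stated unit, and no table used here pairs probe sets with genes. The transcripts are therefore unnamed, the level of Hoxb4 itself was not checked, and the markers of the labelled cell type could not be looked up.

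HoxB4 is a homeobox transcription factor. When expressed above its natural level it lets blood stem and progenitor cells multiply in culture and helps progenitors made from embryonic stem (ES) cells to engraft. iHoxB4 is a usual name for ES cell lines in which doxycycline, an antibiotic that acts on tetracycline-controlled promoters, switches HoxB4 on. The labels do not describe the construct. MigR1 is a retroviral vector that marks the cells it enters with green fluorescent protein and carries no added factor.

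Both groups were mouse c-Kit+CD41+ cells, described as hematopoietic stem/progenitor cells. c-Kit is a receptor tyrosine kinase that binds stem cell factor. CD41 is an integrin subunit found on the earliest blood cells of the embryo. The precursors were sorted from ES cells differentiated for 6 days in embryoid bodies and then kept on OP9, a mouse stromal cell line. Per the labels, RNA came from day 8 of that coculture, whereas the design text of the series names day 12. MigR1 cells (n = 2 arrays) were transduced with the control virus and had no doxycycline. iHoxB4 cells (n = 2 arrays) had doxycycline, and no virus is named for them. Another group, HoxB4 (n = 2 arrays), was transduced with a HoxB4 retrovirus and had no doxycycline. HoxB4 expression, the drug and the virus thus changed together between iHoxB4 and MigR1 and cannot be told apart. No label tells whether both arrays of a group hold RNA of separate cultures. The p-values below then reflect array-to-array spread that may be technical.

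On each array the scores ran from 16.9 or 17.0 to 86.0, with a median of 45.43. Sorted by size, the scores of any array lay within 0.115 units of those of MigR1 array 1, so a score states where a probe set ranks on its array. That rank is given below as a percentile, from the lowest score to the highest. A change of score goes with a change of rank relative to other probe sets. With no stated unit, it could not be converted to a fold change of RNA.

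By correlation, the MigR1 arrays did not stand together. Their correlation across all 35557 probe sets was 0.9895. That is below the 0.9909 of MigR1 array 1 with iHoxB4 array 2 and the 0.9908 of MigR1 array 2 with iHoxB4 array 1. Other measures, over the probe sets tested, were mixed. Their median absolute difference was 0.863 units, against 0.825 to 1.02 for a MigR1 with an iHoxB4 array. They differed by at least 10 units at 55 probe sets, against 70 to 155 for those mixed pairs. The iHoxB4 arrays correlated with each other at 0.9966. The median SD between the arrays of a group was 0.611 score units in MigR1, 0.305 in iHoxB4 and 0.325 in HoxB4. The MigR1 arrays differed from each other by at least 5 units at 827 probe sets, and the iHoxB4 arrays did so at 113. For MigR1 array 1 the count was 771 with iHoxB4 array 1 and 718 with iHoxB4 array 2, both below 827. For MigR1 array 2 it was 872 and 1289, both above.

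Which probe sets differ between doxycycline-treated iHoxB4 cells and control progenitors was asked first. In iHoxB4, 417 probe sets rose (1.53% of those tested) and 922 fell (3.37%), together 4.9% (limma, Benjamini-Hochberg adjusted p under 0.05). These counts include 116 rises and 52 falls in a run of consecutive probe set numbers, described below, whose content was not determined. Falls were also larger. The median change was -3.97 score units among probe sets that fell and 2.79 among those that rose. A change of at least 5 units was reached by 310 of the falls and 44 of the rises, and one of at least 10 units by 38 and 2. Over all probe sets tested, called or not, 583 differed by at least 5 units and 45 by at least 10, and the highest increase, 13.58 units, did not pass. The sizes of called probe sets are a description, since the calls were made on the same values.

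Without the adjustment the directions were nearly even. At an unadjusted p under 0.05, the iHoxB4 mean was above that of MigR1 at 3145 probe sets (11.5%) and below it at 3082 (11.3%). Both iHoxB4 arrays lay above both MigR1 arrays at 7205 probe sets (26.4%) and below both at 6312 (23.1%). The median difference over all probe sets tested was 0.1 units.

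**Figure D1:**
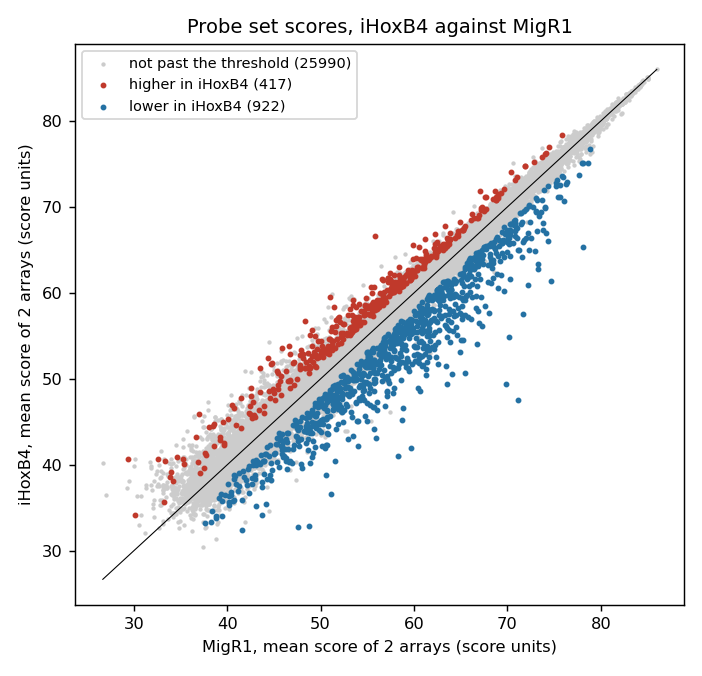
Mean score of the 2 iHoxB4 arrays (vertical axis, score units) against that of the 2 MigR1 arrays (horizontal axis, score units) for the 27329 probe sets tested, with the line of equal scores. The 922 probe sets that fell (blue) reach farther from the line than the 417 that rose (red).

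The calls rest on few arrays. With only the 4 iHoxB4 and MigR1 arrays in the fit, 24 probe sets rose and 262 fell, and leaving out HoxB4 array 1 or HoxB4 array 2 gave the same counts, since a lone array adds no spread. Without iHoxB4 array 1 none passed (lowest limma adjusted p = 0.0644), while an unadjusted p under 0.05 was reached by 1649 higher and 1942 lower probe sets. Without iHoxB4 array 2 none passed either (lowest limma adjusted p = 0.0717), with 1382 higher and 1875 lower unadjusted. Without MigR1 array 1 there were 889 rises and 884 falls, and without MigR1 array 2 there were 444 and 1165. In these 2 fits the error came from the HoxB4 and iHoxB4 arrays alone, which varied less than those of MigR1.

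How far falls outnumbered rises depended on the fit. The share of falls among the calls was 68.9%, against 91.6% with only the 4 arrays compared and 49.9% without MigR1 array 1. It was 52.8% when the spread was modelled along the level of the score and 55.5% when only probe sets above the array median were tested.

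**Figure D2:**
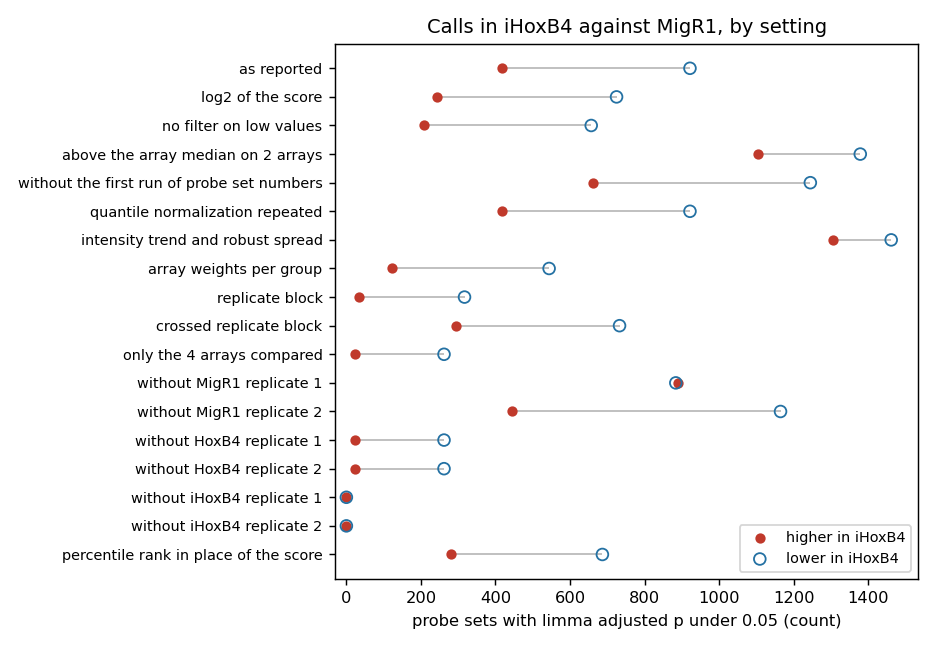
Number of probe sets past the threshold in iHoxB4 against MigR1 (horizontal axis, count) for the reported fit and each other setting (one per line), with rises as filled and falls as open circles. Rises range from 0 to 1305 and falls from 0 to 1462, and both are 0 without either iHoxB4 array.

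The probe sets that fell stood high in MigR1 cells, in part because they were chosen for a higher score there. Their median score was 58.5 and 58.3 on the MigR1 arrays and 53.3 and 53.2 on the iHoxB4 arrays. The median percentile was 77 in MigR1 and 67.7 in iHoxB4, against 61.5 in both groups over all probe sets tested. At least 10 percentile points separated the groups at 317 of the 922, and at least 20 at 44.

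The probe sets that rose moved less along the ranks. Their median score was 55.5 and 55.4 on the MigR1 arrays and 58.5 and 58.6 on the iHoxB4 arrays. The median percentile was 71.6 in MigR1 and 77.1 in iHoxB4, so the rises too lay above the 61.5 of all probe sets tested. Of the 417, 58 moved by at least 10 percentile points and 3 by at least 20. All called probe sets had iHoxB4 arrays on one side of both MigR1 arrays, against 49.5% of those tested. This follows largely from the call, which needs a difference that is large relative to the spread.

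Called probe sets were most frequent in the upper middle of the score range. Between scores of 55 and 65, taken as the mean over 6 arrays, 3.33% of 6183 probe sets rose and 5.14% fell. Between 45 and 55, 1.56% of 7844 rose and 4.72% fell. At 65 and over the shares were 1.36% and 2.58% of 4188. Under 45 they were 0.351% and 1.38% of 9114, so falls were the more frequent call in every band.

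Spread between arrays followed the level as well. The median SD between the MigR1 arrays was 0.937 units under 45, 0.833 from 45 to 55, 0.418 from 55 to 65 and 0.261 at 65 and over. In iHoxB4 it was 0.46, 0.403, 0.215 and 0.143 over the same bands. The lowest band, with few calls, therefore also had the widest spread, and its part in the number of calls was not tested. Unadjusted calls turned with the level, with 376 higher and 693 lower under 45, and 1247 higher and 919 lower from 55 to 65.

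**Figure D3:**
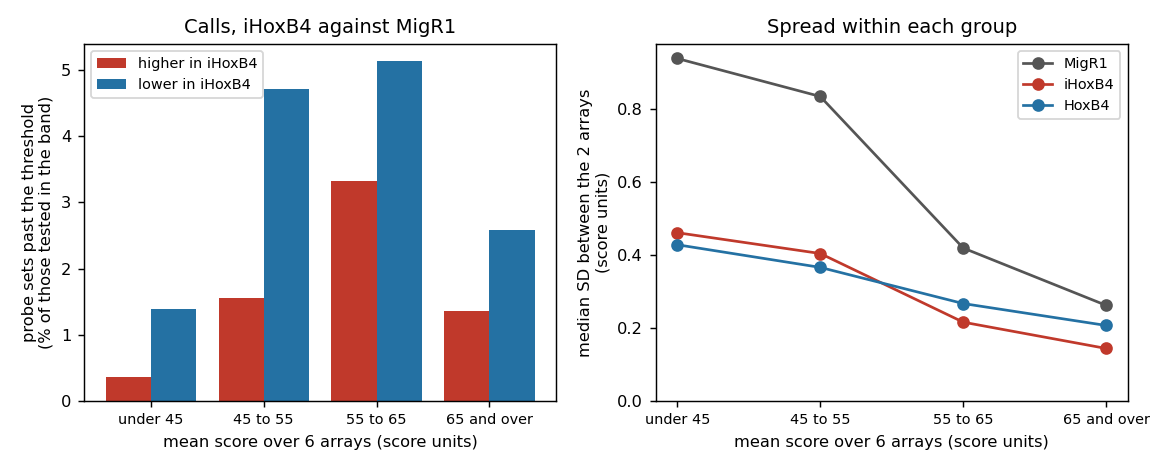
Left, percent of tested probe sets that rose (red) or fell (blue) in iHoxB4 against MigR1 in 4 bands of mean score over 6 arrays. Right, median SD between the 2 arrays of MigR1, iHoxB4 and HoxB4 in the same bands (score units): calls peak from 55 to 65, and MigR1 has the widest spread in all 4 bands.

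The next 4 probe sets are described array by array. They had the largest 2 changes each way among called probe sets outside the first run of consecutive numbers. The largest fall was at probe set 10589535. It scored 72.4 and 70.0 on the MigR1 arrays and 46.7 and 48.5 on the iHoxB4 arrays. In rank it went from percentiles 95.6 and 93.7 to 53.5 and 57.7, from near the top of the array to its middle. The difference was -23.6 score units (SE 1.03; limma adjusted p = 0.00325).

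Probe set 10435497 had the second largest fall. It scored 70.5 and 69.2 in MigR1 (percentiles 94.2 and 93.0) and 49.1 and 49.7 in iHoxB4 (percentiles 59.0 and 60.2). The arrays of each group lay close together relative to the difference, which was -20.5 (SE 1.06; limma adjusted p = 0.00372).

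Among rises, probe set 10599627 was first outside that run. It scored 55.9 on both MigR1 arrays, at percentile 72.3 on each, and 66.4 and 66.7 on the iHoxB4 arrays, at percentiles 90.0 and 90.4. The difference was 10.7 units (SE 0.35; limma adjusted p = 0.00278). The arrays of each group nearly coincided here.

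Probe set 10390789 rose from low scores. It stood at 35.6 and 38.4 in MigR1, percentiles 21.2 and 28.2, and at 45.9 and 46.1 in iHoxB4, percentiles 51.3 and 51.8. The MigR1 arrays were farther apart than the iHoxB4 arrays. The difference was 8.93 units (SE 1.04; limma adjusted p = 0.0194), and with only the 4 arrays compared it did not pass (limma adjusted p = 0.0735). Of these 4 probe sets the other 3 still passed in that fit, and none of the 4 passed without an iHoxB4 array.

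**Figure D4:**
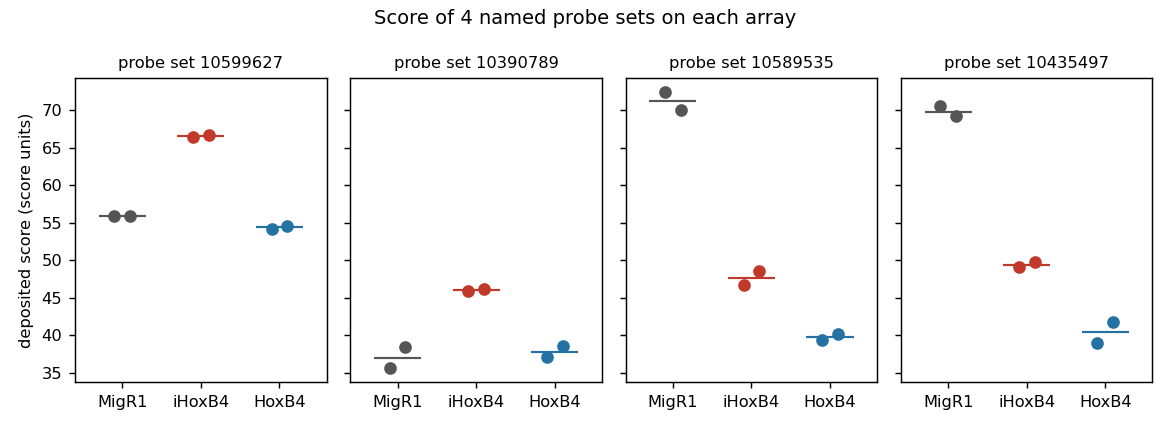
Deposited score (vertical axis, score units) of the 4 named probe sets on each array of MigR1, iHoxB4 and HoxB4, with points for single arrays and lines for group means of 2. For the 2 probe sets that rose (left) HoxB4 lies near MigR1, with means of 54.4 against 55.9 and 37.8 against 37.0, and for the 2 that fell (right) it lies below iHoxB4.

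Against the cells that carried a HoxB4 retrovirus, iHoxB4 cells were compared directly. The difference uses no MigR1 value, but the spread was estimated over all 6 arrays, MigR1 included. The score was higher in iHoxB4 at 357 probe sets (1.31% of those tested) and lower at 185 (0.677%), together 1.98% (limma, adjusted p under 0.05). Before adjustment, 2015 (7.37%) were higher and 1961 (7.18%) lower at a p under 0.05. With any one HoxB4 or iHoxB4 array left out none passed, the lowest limma adjusted p lying between 0.0717 and 0.096. An unadjusted p under 0.05 was then reached by 1197 to 1468 higher and 873 to 1160 lower probe sets. With only the HoxB4 and iHoxB4 arrays in the fit, 437 were higher and 268 lower. The 4-array fit against MigR1 gave 24 and 262, so the order of the reported fit, with more calls against MigR1, was reversed. It was also reversed with arrays weighted by group, at 925 and 630 against HoxB4 and 122 and 544 against MigR1. The other settings with calls kept the reported order. The counts therefore do not say which group iHoxB4 lay nearer to. Doxycycline and the retrovirus differ between these groups as well.

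The named rises and the named falls took different places relative to HoxB4 cells. They were named for their difference between iHoxB4 and MigR1, so the iHoxB4 arrays served both the choice and the contrast with HoxB4. The limma p-values of that contrast are given as a description. Probe set 10599627 scored 54.2 and 54.5 on the HoxB4 arrays, at percentiles 69.3 and 69.9, so that iHoxB4 alone of the 3 groups stood high. The iHoxB4 mean exceeded that of HoxB4 by 12.2 units (limma adjusted p = 0.00289). Its HoxB4 difference from MigR1 was -1.51 units and did not pass (limma adjusted p = 0.056). Probe set 10390789, at 37.1 and 38.5 in HoxB4, had an iHoxB4 mean 8.14 units above it (limma adjusted p = 0.037), and 0.792 units separated HoxB4 from MigR1 (limma adjusted p = 0.703).

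Both named falls were deeper with the retrovirus. Probe set 10589535 scored 39.3 and 40.2 on the HoxB4 arrays (percentiles 30.8 and 33.5), which left iHoxB4 between the other groups, 7.83 units above HoxB4 (limma adjusted p = 0.04). Probe set 10435497 scored 39.0 and 41.8 there (percentiles 29.8 and 38.8), and iHoxB4 lay 8.97 units above HoxB4 (limma adjusted p = 0.0302). HoxB4 and iHoxB4 were set against the same MigR1 arrays. Their differences from MigR1 were -31.4 and -23.6 units at probe set 10589535, and -29.4 and -20.5 at probe set 10435497.

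Over longer lists the same values were read as a description, since the lists were chosen on iHoxB4 and MigR1. Among the 10 largest called falls, from -14.11 to -23.58 units, the HoxB4 mean was below the iHoxB4 mean at 10, and iHoxB4 passed as higher than HoxB4 at 5 (limma, adjusted p under 0.05). Among the 10 largest called rises, from 7.22 to 11.27 units, the HoxB4 mean was below the iHoxB4 mean at 8 and below the MigR1 mean at 1, and iHoxB4 passed as higher than HoxB4 at 3. Over all 922 falls the median score was 50.6 and 50.8 on the HoxB4 arrays, below both iHoxB4 medians of 53.3 and 53.2. Over all 417 rises it was 58.4 and 58.2, beside 58.5 and 58.6 in iHoxB4. The median difference from MigR1 over these rises was 2.69 units in HoxB4 and 2.79 in iHoxB4. Over the falls it was -5.73 and -3.97. The named rises, where HoxB4 lay near MigR1, thus differed from the typical called rise.

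One block of probe sets leaned the other way. The lowest 6614 probe set numbers follow each other without a gap. What this run measures, and whether its probe sets stand for genes, was not determined here. The run gave 5023 of the probe sets tested (18.4%). Of these, 2.31% rose and 1.04% fell, against 1.35% and 3.90% of the other 22306. The run thus held 116 of the 417 rises (27.8%) and 52 of the 922 falls (5.64%).

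Large called rises were concentrated in that run. It held 32 of the 44 rises of at least 5 units, but 3 of the 310 falls of that size. It also held 7 of the 10 largest called rises and 0 of the 10 largest called falls. Outside it, 12 rises and 307 falls reached 5 units.

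MigR1 array 2 was low in this run. The median score over the run was 48.4 on MigR1 array 1 and 47.1 on MigR1 array 2, and 48.6 and 49.0 on the iHoxB4 arrays. The median difference of iHoxB4 was 1.1 units from MigR1 array 2 and 0.22 from MigR1 array 1. Over the other numbers it was -0.22 from MigR1 array 2 and 0.25 from MigR1 array 1. The median SD between MigR1 arrays was 1.29 units in the run and 0.533 elsewhere. With the run left out of the fit, 662 probe sets rose and 1245 fell in iHoxB4. The part of MigR1 array 2 in the rises within the run was not tested.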

How the data were processed

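Expression was measured on 6 Affymetrix arrays, 2 each for MigR1, HoxB4 and iHoxB4. Per the submitters' processing notes, the tools were Affymetrix Expression Console and RMA, without versions. Each probe set has a deposited score, whose unit the sources used here do not state. The authors' distribution of scores is nearly the same on every array. The highest scores are above the range of log2 RMA values. A linear model with a mean for each of the groups was fitted to the 6 arrays (lmFit and eBayes of limma 3.58.1, in R 4.3.3) on the score as deposited. The score was preferred to its log2 for its more even spread: the median SD between replicates varied 2.85 times over bands of level, against 4.89 times on log2. A probe set was tested if it exceeded the array's percentile 25 on 2 or more arrays. P-values were adjusted by Benjamini-Hochberg and read at 0.05. eBayes estimated 1.99 prior degrees of freedom. An exact test of 2 arrays against 2 cannot go below p = 0.333. The number of arrays limits the precision, and the procedure was tested on simulated data.

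Groups and replicate numbers come from the titles. The comparison, the tests and the rule for the named probe sets (the largest 2 changes each way, past the threshold, groups not overlapping, outside the first run of numbers) were chosen with earlier results of these data known. Gene lists and cell type markers could not be used without gene names. Alternatives were log2 of the score, percentile ranks, other filters, repeated quantile normalization, other models of the spread, replicate blocks, fewer groups and leaving out each array. The 2 ChIP arrays were not used here.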

Additional observations from a re-analysis of the deposited data

Results flagged for a closer look

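All 4 named probe sets differed between the iHoxB4 and HoxB4 groups by the direct contrast (limma adjusted p from 0.00289 to 0.04; iHoxB4 higher on both arrays in each case). The difference of iHoxB4 from HoxB4 was 12.2 score units at probe set 10599627 and 8.14 at probe set 10390789, which rose in iHoxB4 against MigR1. It was 7.83 units at probe set 10589535 and 8.97 at probe set 10435497, which fell. These probe sets were named for their difference between iHoxB4 and MigR1, so the iHoxB4 arrays served both the choice and this contrast. Over 17 alternatives the contrast stayed past the threshold in 13 at probe set 10599627, 9 at 10390789, 10 at 10589535 and 9 at 10435497, and the highest limma adjusted p was 0.096, 0.289, 0.276 and 0.237 in that order.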

How the results depend on the processing

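The count of rises in iHoxB4 against MigR1 was 417 and moved to 244 on log2 of the score, 209 with no filter on low values and 1105 above the array median. It was 662 without the first run of numbers, 1305 with an intensity trend and robust spread, 122 with array weights per group, 34 with the replicate block and 24 with only the 4 arrays compared. The count of falls was 922 and moved to 1462 with the trend, 544 with array weights, 317 with the replicate block and 262 with only the 4 arrays. Leaving out 1 array gave 0 to 889 rises and 0 to 1165 falls. Against HoxB4, the 357 probe sets higher in iHoxB4 became 629 above the array median, 539 without the first run, 696 with the trend, 925 with array weights and 102 with the replicate block. The 185 lower ones became 123 with no filter, 349, 350, 329, 630 and 42 in the same order. Leaving out 1 array gave 0 to 437 higher and 0 to 268 lower. The causes of these moves were not tested. Repeated quantile normalization returned the same 417 and 922 probe sets against MigR1. Percentile ranks, an alternative chosen after seeing the data, gave 280 rises, 251 of them among the 417, and 687 falls, 656 of them among the 922.

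No label says that arrays with the same replicate number belong together. Deviations of same-numbered arrays correlated at 0.25 (MigR1 and HoxB4), -0.46 (MigR1 and iHoxB4) and -0.18 (HoxB4 and iHoxB4). A negative value means that arrays of unlike number deviated alike. Whether arrays of different groups shared a batch was not tested. A crossed pairing, with the iHoxB4 numbers exchanged and chosen after seeing the data, gave 294 rises and 733 falls against MigR1, and 250 higher and 139 lower probe sets against HoxB4. No named probe set reversed its direction in any comparison where it had passed. In iHoxB4 against MigR1, probe set 10589535 had a limma adjusted p from 0.000521 to 0.0717 over 17 alternatives, 10435497 from 0.000678 to 0.0717, 10599627 from 0.000382 to 0.0717 and 10390789 from 0.00735 to 0.178. The lower score of HoxB4 than MigR1 at 10599627 had a limma adjusted p from 0.0265 to 0.255 over 16 alternatives and passed in 4 of them.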
